A study of Mus with 4 samples.

Results

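Complement is a cascade of plasma and tissue proteins that tag microbes, debris and synapses for removal. The classical pathway starts when C1q, with the proteases C1r and C1s, cleaves C4 and C2. The alternative pathway runs through factor B, factor D and properdin, and both meet at C3. Hepatocytes supply most of the plasma protein, while macrophages, fibroblasts and other resident cells make part of the tissue pool. The set described here holds 9 mouse genes chosen by symbol: the classical pathway genes C1ra, C1s1, C4b and C2, the C1 inhibitor gene Serping1, the central component C3, and the alternative pathway genes Cfb, Cfp and Cfd. The C1q chains were not part of the set and are given further below for comparison. Of the 9 genes, 8 were among the 21230 genes of the table, and Cfd, the factor D gene, was not analysed here.

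RNA was sequenced from cochleae of mice that carry Otof c.1315 C > T, a premature stop in the gene of otoferlin, which senses calcium at the synapses of inner hair cells. There were 2 libraries from mice that carry this change and had no RESTART treatment, and 2 libraries, labelled RESTARTv3, from mice of the same genotype with RESTART treatment. RESTART v3 is an RNA modification system delivered by the viral vector AAVie through the posterior semicircular canal at 4 weeks of age, a vector chosen for inner hair cells. Its guide RNA and a DKC1 isoform make pseudouridine at the stop codon, and a near-cognate tRNA helps the codon to be read. No library from mice given an empty or reporter vector was analysed, so the effects of surgery, virus and RESTART v3 itself cannot be told apart. The age of the untreated mice and the time from injection to this RNA extraction are not given in the sources used here. The methods call the replicates independent, but no label ties a library to a mouse, so p-values measure only the spread between these libraries. The RNA comes from the whole cochlea, so fewer cells of a type and less RNA per cell cannot be told apart.

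Values are RPKM, reads scaled by the length of the gene and the total of the library, where the length is the gene span with introns. The untreated columns share 1 name and are called libraries A and B, letters with no order. The library totals that fit the values run from 39650172 to 71144247 reads, and the listed genes hold 28.6% of the total in RESTARTv3 replicate 2 against 52.9 to 60.4% in the other libraries. Most genes are therefore low in that library: over tested genes the median log2 ratio of RESTARTv3 replicate 1 to replicate 2 was 1.06. Scaled RPKM below means RPKM divided by a median-of-ratios factor per library, taken over all listed genes. The untreated libraries stood far apart after scaling, with a median absolute difference of 0.98 on the log2 scale per tested gene, against 0.17 between the RESTARTv3 libraries. Cochlear genes were present in each library, with Coch, a protein of the spiral ligament and limbus, at 87.1 to 151 scaled RPKM and Otos, of fibrocytes, at 28.0 to 120 scaled RPKM.

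No complement gene of the set passed the test for a difference between RESTARTv3 and untreated cochleae. Of the 8 listed members, 5 had a mean RPKM of at least 1 and were tested, and 0 of these passed an adjusted p of 0.05, against 0% of all 5076 tested genes (limma, Benjamini-Hochberg). None of the 5 had an unadjusted p under 0.05, against 1.42% of all tested genes. C1ra, C1s1 and C2 lay below the minimum. The intervals and p-values of this fit draw on the spread over all tested genes and do not follow the SD of a single gene. With limma voom on recovered reads all 8 could be tested, and again 0 passed, with 0 at an unadjusted p under 0.05, against 0% and 2.19% of 18467 genes. The log2 change of the tested members ran from -0.64 for Serping1 to 0.33 for Cfb, with a median of -0.14 beside -0.41 over all tested genes. After scaling the median of all tested genes was -0.20 and that of the members 0.02. With 2 libraries per group the smallest p of an exact permutation test is 0.333, so no single value was tested in that way. The fit to scaled values also had 0 of 5 members past the adjusted threshold, beside 0% of all genes, and 0 of 5 at an unadjusted p under 0.05, beside 1.08%. With no minimum, 0 of 8 members passed, beside 0.0565% of all genes, and 0 had an unadjusted p under 0.05, beside 3.94%. The groups did not overlap for 3 of 8 members as deposited, beside 27.5% of listed genes, and for 1 of 8 after scaling, beside 37.7%.

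**Figure D1:**
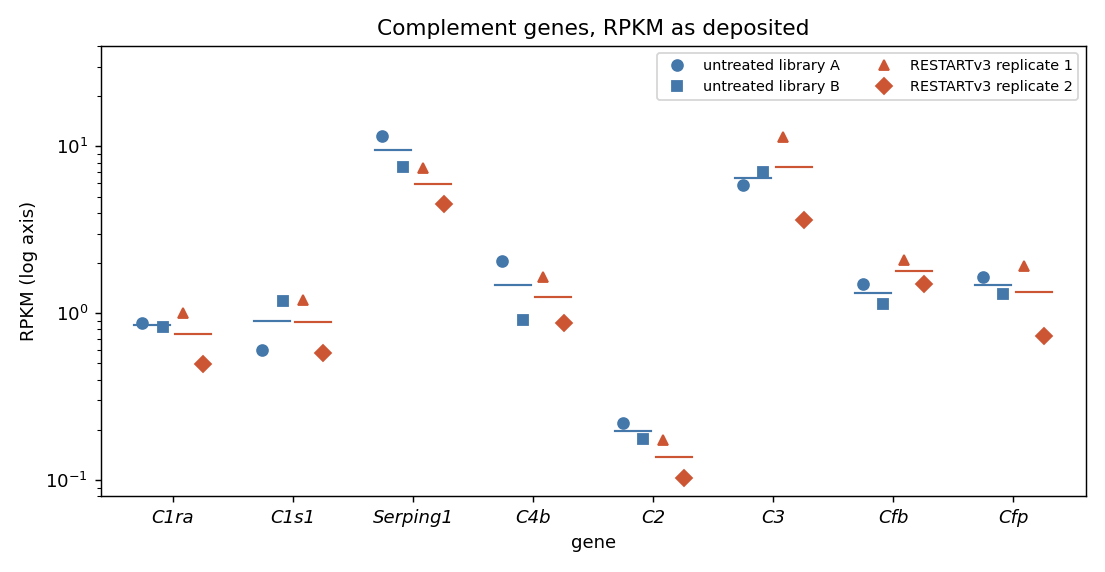
RPKM of the 8 listed complement genes as deposited, on a log axis, with 1 symbol per library and a short line at the mean of each group (n = 2). C3 and Serping1 lie above all others in each library, and RESTARTv3 replicate 2 is the lowest library for 7 of the 8 genes, Cfb being the exception.

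Serping1 and C3 made up most of the summed RPKM of the set. They held 65.6 to 72.5% of the RPKM summed over the 8 genes in each library. Serping1, which encodes the inhibitor of C1r and C1s, was highest in 3 of the 4 libraries and C3 in RESTARTv3 replicate 1. Serping1 was at 94.8 and C3 at 94.4 on a scale that gives the percent of listed genes with a lower mean RPKM. C2 was the lowest in all 4 libraries, at a mean of 0.168 RPKM and with 41.6% of listed genes below it. Its RPKM was divided by a span of at least 70261 bases, far longer than its neighbour Cfb at 6143 bases, so the 2 are not compared as levels. The 5 genes between them (C1ra, C1s1, C4b, Cfb and Cfp) lay between 0.495 and 2.08 RPKM in every library. Their order changed from library to library. Spans of the members differ, from 6102 bases for Cfp to at least 70261 for C2. Shares and ranks here therefore describe RPKM over the span with introns and may not follow the amounts of transcript.

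Neither protease gene of the C1 complex passed the test. C1ra, which encodes C1r, was at 0.874 RPKM in untreated library A, 0.826 in untreated library B, 1.01 in RESTARTv3 replicate 1 and 0.495 in RESTARTv3 replicate 2. The group means were 0.850 ± 0.0341 and 0.750 ± 0.361 RPKM (SD, n = 2 each), and the RESTARTv3 libraries lay on both sides of the untreated ones. After scaling C1ra was at 0.939 and 0.625 (untreated) against 0.775 and 0.779 (RESTARTv3), so that the treated pair lay between the untreated pair. On recovered reads (375, 507, 774 and 327 in the same order) its log2 change was 0.03 with a 95% interval of -1.02 to 1.08 (limma voom, Benjamini-Hochberg adjusted p = 0.980). C1s1, which encodes C1s and neighbours C1ra, was at 0.601 RPKM in untreated library A, 1.19 in untreated library B, 1.21 in RESTARTv3 replicate 1 and 0.574 in RESTARTv3 replicate 2. The groups overlapped on this scale. After scaling both RESTARTv3 libraries (0.930 and 0.904) lay above both untreated ones (0.646 and 0.901), the nearest of them by 0.904 against 0.901, a gap below the counting error. C1s1 was the 1 member of 8 with both RESTARTv3 libraries higher after scaling, beside 16.2% of all listed genes. Its log2 change on recovered reads (287, 813, 1033 and 422) was 0.26 with an interval of -0.76 to 1.27 (limma voom, Benjamini-Hochberg adjusted p = 0.824).

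Serping1 had the lowest log2 change of the tested members. It was at 11.5 RPKM in untreated library A, 7.52 in untreated library B, 7.40 in RESTARTv3 replicate 1 and 4.53 in RESTARTv3 replicate 2, from 4582, 4298, 5307 and 2786 reads. Both RESTARTv3 libraries lay below both untreated ones, the nearest by 7.40 against 7.52. Of the 8 members 2 showed this order, Serping1 and C2, beside 25.2% of all listed genes. The means were 9.49 ± 2.79 and 5.97 ± 2.03 RPKM (SD, n = 2 each), with a log2 change of -0.64 and a 95% interval of -2.29 to 1.02 (limma, Benjamini-Hochberg adjusted p = 0.998). After scaling Serping1 was at 12.3 in untreated library A and at 5.69, 5.71 and 7.13 in library B and the RESTARTv3 replicates, so that only library A stood high. The 8 fibroblast and fibrocyte markers were split over the libraries. Col1a1, Col1a2, Fn1 and Otos were highest in untreated library A, while Dcn, Lum, Pdgfra and Coch were lowest there. Col1a1 was at 686 scaled RPKM in library A against 83.4 to 111 in the others, and made up most of the sum of the list, 1077 against 299 to 352. Lum was at 5.32 scaled RPKM in library A against 9.43 to 14.4. The part of these cells in the Serping1 values was not tested. Without untreated library A the log2 change of Serping1 was 0.16 on recovered reads. Without untreated library B it was -0.95 and passed (limma voom, Benjamini-Hochberg adjusted p = 0.0285), but that fit has library A as its only untreated library and 8540 of 18467 genes pass it.

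C4b and C2 encode the substrates that C1s cleaves to form the classical C3 convertase. C4b was at 2.06 RPKM in untreated library A, 0.906 in untreated library B, 1.64 in RESTARTv3 replicate 1 and 0.877 in RESTARTv3 replicate 2. The RESTARTv3 libraries overlapped the untreated ones, with means of 1.48 ± 0.813 and 1.26 ± 0.539 RPKM (SD, n = 2 each). The log2 change was -0.14 with a 95% interval of -1.50 to 1.21 (limma, Benjamini-Hochberg adjusted p = 0.998). After scaling C4b was at 2.21 in library A, 0.686 in library B and 1.26 and 1.38 in the RESTARTv3 libraries. This was the widest spread within a group among the members: untreated library A was 3.22 times library B, and RESTARTv3 replicate 1 was 0.916 times replicate 2. Which untreated library is used therefore sets the direction on recovered reads, with a log2 change of 0.94 without library A and of -0.74 without library B (limma voom, Benjamini-Hochberg adjusted p = 1 and 0.0244). On scaled values C4b was at -0.57 without library B and passed (limma, Benjamini-Hochberg adjusted p = 0.0376). These fits have library A as their only untreated library, and 8540 of 18467 genes pass the first and 2335 of 5076 the second. C4a, a near copy of C4b, had 8 to 17 recovered reads per library, and C4b at least 1323.

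C2 was at 0.221 RPKM in untreated library A, 0.175 in untreated library B, 0.173 in RESTARTv3 replicate 1 and 0.102 in RESTARTv3 replicate 2. Both RESTARTv3 libraries were lower, the nearest by 0.173 against 0.175. The reads behind these values are at least 615, 698, 866 and 439, and after scaling the groups overlapped, with 0.237 and 0.133 (untreated) against 0.134 and 0.161 (RESTARTv3). On recovered reads the log2 change was -0.26 with an interval of -1.39 to 0.86 (limma voom, Benjamini-Hochberg adjusted p = 0.836). It was 0.12 without untreated library A, and -0.71 without library B, where it passed (limma voom, Benjamini-Hochberg adjusted p = 0.0465) along with 8540 of 18467 genes.

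C3, the protein on which all pathways converge, was high in 1 RESTARTv3 library and low in the other. It was at 5.84 RPKM in untreated library A, 7.06 in untreated library B, 11.4 in RESTARTv3 replicate 1 and 3.64 in RESTARTv3 replicate 2. The RESTARTv3 libraries were thus the highest and the lowest of the 4. The means were 6.45 ± 0.865 and 7.54 ± 5.51 RPKM (SD, n = 2 each), with a log2 change of 0.02 and a 95% interval of -1.62 to 1.66 (limma, Benjamini-Hochberg adjusted p = 0.998). C3 rests on at least 3635 reads in each library, a counting error of at most 1.66%, so depth does not set this interval. Its width draws on the spread between libraries over all tested genes, and not on C3 alone. In the fit with no mean-variance trend every tested member had the same SE, 0.658. After scaling it was at 6.27 and 5.34 (untreated) against 8.81 and 5.72 (RESTARTv3), and the groups still overlapped. RESTARTv3 replicate 1 held the highest C3 on both scales. The 6 listed neutrophil and granulocyte precursor markers were also highest there, with 423 summed scaled RPKM against 240 to 280 in the other libraries, while S100a8 and S100a9 were not listed. Of the 8 macrophage markers only Lyz2, at 77.5 scaled RPKM against 27.9 to 53.6, and Adgre1 were highest in that library. Csf1r and Cd68 were highest in untreated library A, Cd163 in untreated library B, and Cx3cr1, Aif1 and Mrc1 in RESTARTv3 replicate 2. The sum of the list, 89.7 against 43.6 to 64.5, was mostly Lyz2. The part of either cell type in the C3 values was not tested. Without RESTARTv3 replicate 1 the log2 change of C3 was -0.74 on log2 RPKM, and -0.02 on recovered reads. Without RESTARTv3 replicate 2 it was 0.79 and 0.61.

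**Figure D2:**
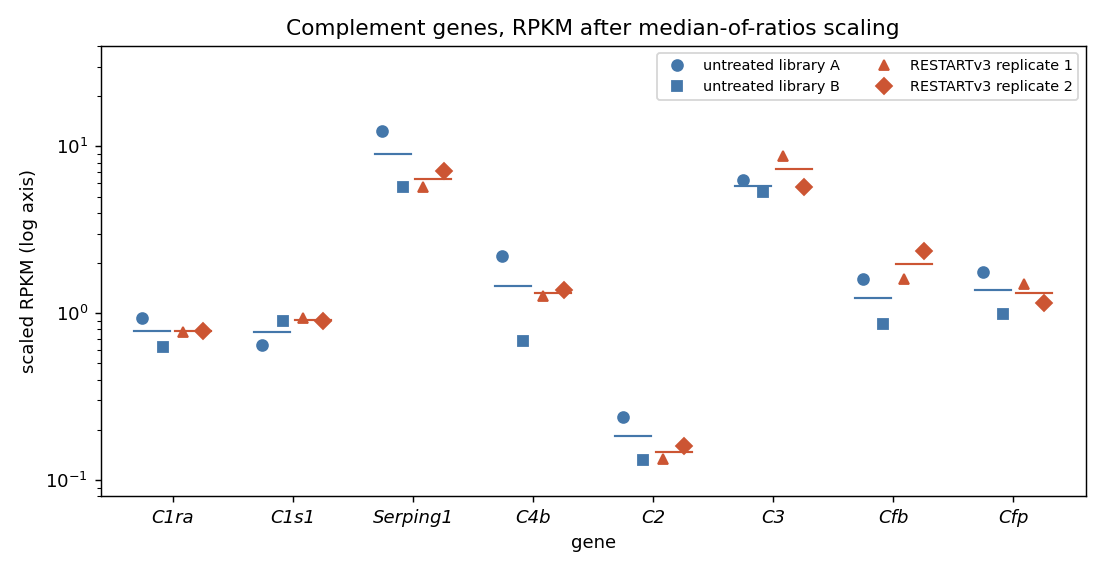
RPKM after median-of-ratios scaling for the same 8 genes on a log axis, with 1 symbol per library and a short line at each group mean (n = 2). Untreated library A is the highest library for Serping1, C4b, C2, C1ra and Cfp, while Cfb is highest in RESTARTv3 replicate 2 and C3 in RESTARTv3 replicate 1.

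Cfb, which encodes the protease of the alternative pathway convertase, had the highest log2 change of the set. It was at 1.50 RPKM in untreated library A, 1.14 in untreated library B, 2.08 in RESTARTv3 replicate 1 and 1.51 in RESTARTv3 replicate 2, from 366, 396, 908 and 565 reads. It was the 1 member of 8 with both RESTARTv3 libraries above both untreated ones on the deposited scale, beside 2.24% of all listed genes. The nearest libraries stood at 1.51 and 1.50, a gap far below the counting error, which reached 5.23% at 366 reads. The means were 1.32 ± 0.259 and 1.79 ± 0.404 RPKM (SD, n = 2 each). The log2 change was 0.33 with a 95% interval of -1.06 to 1.72 (limma, Benjamini-Hochberg adjusted p = 0.998), which lies 0.74 above the median of all tested genes. After scaling the values were 1.61 and 0.860 (untreated) against 1.60 and 2.37 (RESTARTv3), so untreated library A and RESTARTv3 replicate 1 were at the same level. On recovered reads the log2 change was 0.73 with an interval of -0.48 to 1.93 (limma voom, Benjamini-Hochberg adjusted p = 0.770). Cfb was above 0 in all 23 fits that tested it, from 0.15 to 1.13, and passed in 0 of them. These fits reuse the same 4 libraries, so their shared sign is not repeated evidence. The share of all genes with the same sign in every fit was not counted.

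Ratios within a library do not depend on its total or scaling. The ratio of Cfb to Serping1 was 0.131 and 0.151 in untreated libraries A and B and 0.281 and 0.333 in RESTARTv3 replicates 1 and 2, a 2.17-fold difference of geometric means. The ratio of Cfb to C2, its neighbour and close relative, was 6.81 and 6.49 (untreated) against 12.0 and 14.7 (RESTARTv3), a 1.999-fold difference. These 2 ratios kept their libraries apart by 1.86-fold and 1.76-fold between the nearest ones. Cfb also stood higher against C1ra, C4b and Cfp without overlap, at 1.63-fold, 1.54-fold and 1.66-fold. Against C4b the nearest libraries differed by a factor of 1.01. Against C1s1 and C3 the ratios overlapped. The groups thus did not overlap in 5 of the 7 ratios of Cfb, beside 46.3% of its ratios to all listed genes. For pairs without Cfb this was 2 of 21 (Serping1 to C4b and C1ra to C2), beside 38.2% of all pairs of listed genes. The 7 ratios share the same Cfb values and are not independent.

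Over all 28 pairs 7 did not overlap, which is 25%, beside 38.2% of all pairs of listed genes. For Cfb as 1 side of the pair the share over all listed genes was 46.3%, and for Serping1 23.0%. Such separation is therefore common in this table and is no result about the members. C3 and Serping1 had the highest mean RPKM of the members. The ratio of C3 to Serping1 was 0.69 higher on the log2 scale in RESTARTv3 libraries and overlapped between the groups. It ranged from 0.22 to 1.16 when each library was left out.

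**Figure D3:**
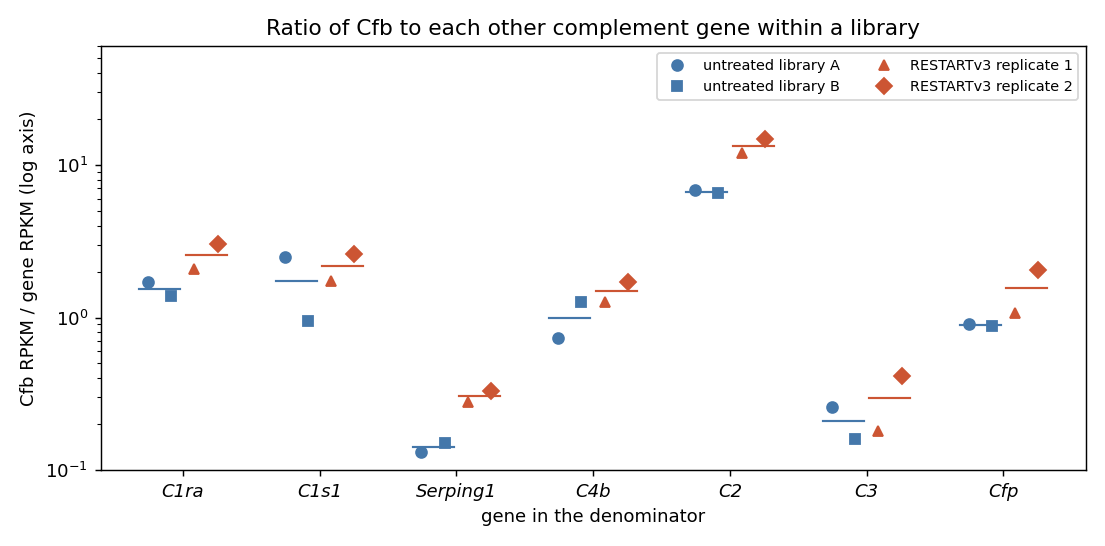
Ratio of the RPKM of Cfb to that of each other listed member within a library, on a log axis, with 1 symbol per library and a short line at each group mean (n = 2). The RESTARTv3 libraries lie above the untreated ones for 5 of the 7 genes, beside 45.4% of all listed genes. The groups are furthest apart for Serping1 and C2, and overlap for C1s1 and C3.

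Of 16 interferon-response genes 0 passed by limma voom after adjustment, while 13 had an unadjusted p under 0.05, beside 2.19% of all genes. The gene lists here were chosen with earlier results of these data known, so counts over them are a description and no test. Both RESTARTv3 libraries were higher for 15 of the 16 after scaling, beside 16.2% of all listed genes, and for 13 as deposited, beside 2.24%. Their summed level was 26.5 and 24.1 scaled RPKM (untreated) against 65.2 and 71.2 (RESTARTv3). Of the 10 acute phase and NF-kB genes 9 were listed, and 6 of these were higher in both RESTARTv3 libraries after scaling, beside 16.2% of all listed genes. Of the 6, Il6 had 1 to 6 reads per library, Orm1 14 to 179, Tnf 29 to 167 and Il1b 40 to 327, with more for Hp and Cp. Lcn2, Nfkbia and Socs3 overlapped after scaling. As deposited all 9 overlapped. Their summed level was 43.7 and 43.1 scaled RPKM (untreated) against 63.9 and 40.7 (RESTARTv3), with Lcn2 alone at 29.2 to 49.98. The part of either group in the Cfb values was not tested.

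Cfp encodes properdin, which steadies the alternative convertase and comes largely from myeloid cells. It was at 1.65 RPKM in untreated library A, 1.30 in untreated library B, 1.93 in RESTARTv3 replicate 1 and 0.733 in RESTARTv3 replicate 2, from 398, 450, 838 and 273 reads. The RESTARTv3 libraries were again the highest and the lowest, with means of 1.47 ± 0.244 and 1.33 ± 0.847 RPKM (SD, n = 2 each). The log2 change was -0.18 with a 95% interval of -1.54 to 1.18 (limma, Benjamini-Hochberg adjusted p = 0.998), and 0.02 on recovered reads. Cfp had the fewest reads of any member in a library, 273 with a counting error of 6.05%. After scaling it was at 1.77 and 0.984 (untreated) against 1.49 and 1.15 (RESTARTv3), so that the treated pair lay within the untreated pair. Cfd encodes adipsin, which cleaves factor B and is made mainly by fat cells. Of 8 adipocyte genes 4 were listed, and Plin1, Cidec, Retn and Lep were not among them. The 4 summed to 16.5 scaled RPKM in untreated library A and to 26.3 to 30.4 in the others. This sum was mostly Car3, at 15.6 scaled RPKM in untreated library A and 23.7 to 27.7 in the others. Adipoq was at 0.251 to 0.599 scaled RPKM. The table holds only genes whose libraries of a group differ by at most 8-fold in reads.

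**Figure D4:**
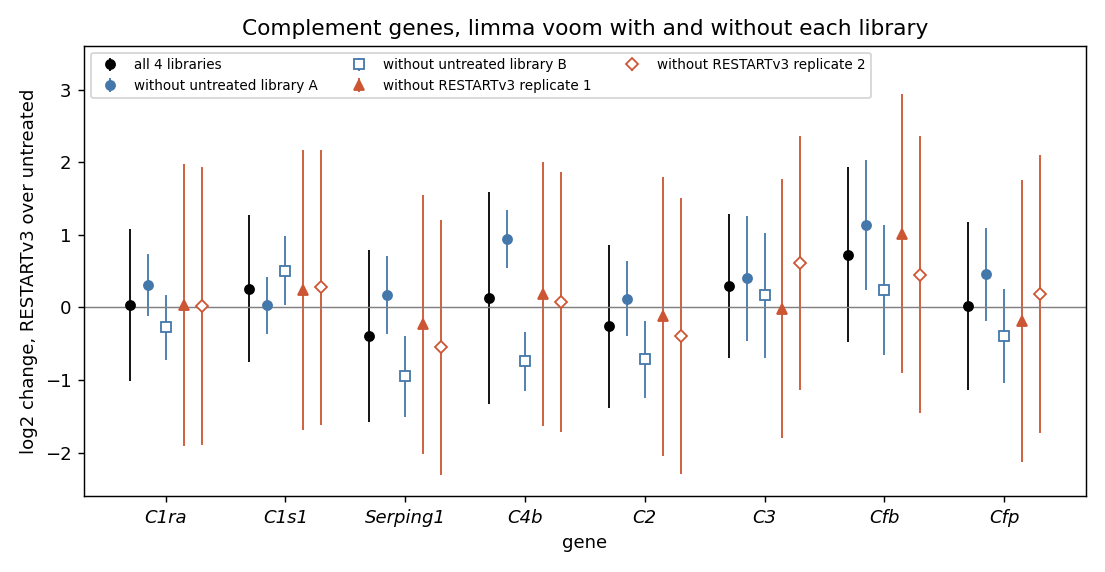
Log2 change of RESTARTv3 over untreated for the 8 listed members by limma voom on recovered reads, with all 4 libraries and without each in turn. Bars are 95% intervals, and in a fit without 1 library the library left alone is assumed to vary like the other group. C4b moves from -0.74 without untreated library B to 0.94 without untreated library A. Cfb and C1s1 stay above 0 in all 5 fits, which share libraries.

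The rest of the complement system was read from a list of 48 genes, of which 34 were listed and 9 were tested. Of these 9, 0 passed in either direction (limma, Benjamini-Hochberg). None had an unadjusted p under 0.05, beside 1.42% of all tested genes. On recovered reads 29 were tested and 0 passed (limma voom, Benjamini-Hochberg), with 17 above 0 and 12 below. The 1 gene of these 29 at an unadjusted p under 0.05 was C6, beside 2.19% of all genes in that fit. C6, a terminal component, had 3 and 13 reads (untreated) against 30 and 15 (RESTARTv3). The 3 C1q chains, secreted by macrophages, followed a pattern seen in C4b and other members. C1qa was at 21.3 scaled RPKM in library A, 6.31 in library B, 9.63 in RESTARTv3 replicate 1 and 10.3 in RESTARTv3 replicate 2. C1qc was at 13.9 and 5.72 (untreated) against 8.77 and 8.22 (RESTARTv3). Both were highest in library A and lowest in library B, with the treated libraries between. C4b had the same order of untreated, treated and untreated libraries, and so did Serping1, C2, C1ra and Cfp. This likeness over 4 libraries is not particular to C4b and is a description.

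No receptor gene passed the test. On recovered reads all 7 listed receptor genes had a log2 change above 0, with a median of 0.48 and 0 passing (limma voom). After scaling both RESTARTv3 libraries were above both untreated ones for 5 of the 7, beside 16.2% of all listed genes, but as deposited for 0 of the 7, beside 2.24%. C3ar1, the receptor of the C3a fragment, was at 0.343 and 0.602 scaled RPKM (untreated) against 0.788 and 1.07 (RESTARTv3), with a log2 change of 0.98 (SE 0.48) and a Benjamini-Hochberg adjusted p of 0.770 by limma voom. Cd93, long known as a C1q receptor candidate, was at 3.04 and 4.53 scaled RPKM (untreated) against 5.68 and 4.75 (RESTARTv3). Itgb2, the chain shared by complement receptors 3 and 4, was at 1.22, 1.30, 1.92 and 1.29 in the same order and overlapped. These receptors sit on myeloid and endothelial cells, and of the 8 macrophage markers 3 were higher in both RESTARTv3 libraries after scaling. The part of such cells in these values was not tested.

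Of the other listed regulators 0 passed by limma voom. Clu encodes clusterin, an inhibitor of the membrane attack complex, and had the highest mean RPKM of the complement genes read here. It was at 40.3 and 16.1 scaled RPKM (untreated) against 15.2 and 21.6 (RESTARTv3). Vtn, which encodes vitronectin, was at 28.5 and 5.48 (untreated) against 2.72 and 10.6 (RESTARTv3). Both were highest in untreated library A, as Serping1 was. The membrane regulators Cd55 and Cd46 were not analysed here. Cd59a, which blocks the membrane attack complex, was at 0.374 and 0.778 (untreated) against 0.627 and 0.657 (RESTARTv3). Cr1l, a mouse regulator of C3 and C4 cleavage also known as Crry, was at 0.219 and 0.404 (untreated) against 0.407 and 0.353 (RESTARTv3). The terminal components were low: C8g had 53, 31, 45 and 22 reads and C7 had 78, 208, 325 and 169, and the C5 gene Hc had 2 to 7 reads per library.

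In the lectin pathway, Fcnb, a ficolin of granulocytes and their precursors, was the only gene above the minimum, at 1.58 and 1.999 scaled RPKM (untreated) against 2.98 and 1.87 (RESTARTv3). Like C3 it was highest in RESTARTv3 replicate 1. Its log2 change on recovered reads was 0.42 (SE 0.44) with a Benjamini-Hochberg adjusted p of 0.771 by limma voom. Colec12, a scavenger receptor with a collectin domain, was at 0.347 and 0.568 (untreated) against 0.462 and 0.564 (RESTARTv3). Masp1, a lectin pathway protease, was at 0.0578 and 0.0351 scaled RPKM (untreated) against 0.0299 and 0.0336 (RESTARTv3), without overlap. Of the 8 listed lectin pathway genes 2, Masp1 and Fcna, were lower in both RESTARTv3 libraries after scaling, beside 21.5% of all listed genes. Of hepatocyte genes, Alb, Apoa1, Serpina1a, Fgb and Ahsg were not among the listed genes and Ttr alone was listed, at 0.631 to 2.10 scaled RPKM.

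The genes most like the mean profile of the 5 tested members, by distance between centred log2 values of scaled RPKM over 4 libraries, were Parp10, Ogfr, Hspa1b, Shisa5 and Daxx, at distances of 0.11 to 0.16. The mean profile of the members was 0.33 in untreated library A, -0.41 in untreated library B, and 0.05 and 0.04 for the RESTARTv3 pair. In this mean the untreated libraries therefore bracketed the treated ones, while for C3 and Cfb a RESTARTv3 library was the highest. The members' median range over the 4 libraries, 1.05 on the log2 scale, was near the 0.98 of all tested genes.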

How the data were processed

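Cochlear RNA of 4 libraries was sequenced. The methods describe depletion of ribosomal RNA and stranded libraries, but the labels give polyA RNA as the molecule, and which holds for these libraries was not settled. The submitters' processing notes and the methods name cutadapt 4.2 for trimming of read 2, UMI-tools 1.0.0 for identifiers, STAR 2.7.10b for alignment to GRCm39, SAMtools 1.14 for filters and HTSeq 1.14 for counts per gene, after removal of duplicates. The strand setting of the counting is not given in the sources used here, so reads of overlapping genes cannot be told apart. The authors deposited RPKM per gene and library and removed genes of poor agreement: the stated limit was 2-fold, but read ratios within a group reach 8-fold.

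RPKM was turned back into reads. With 4 whole library totals, 100% of genes came out whole within 0.001, of them 11568 at the length annotated on GRCm38.p6, otherwise at the smallest length that fits, or at a multiple of it within 5% of the annotation. For C2, C3 and C4b no multiple was near, so their reads are lower bounds.

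The test was limma 3.58.1 in R 4.3.3 (mean-variance trend, 2-sided, Benjamini-Hochberg at 0.05) on log2(RPKM + 0.5) where the mean RPKM reached 1, which understates changes of low genes. limma voom was run where the mean reached 10 reads. The scripts were tested on simulated data. The spread set within groups there was smaller than that between the untreated libraries, so this checks the code and not the results here. Counting errors cover counting only. Samples were grouped by their labels. Members, lists and tests were chosen with earlier results of these data known. All members are named, with up to 2 listed genes of highest mean RPKM in each complement class, near copies, and the 5 genes of most like pattern. Naming C3ar1, C6, Hc, Masp1, Lcn2 and single marker genes and comparing pairs of members were chosen after values were seen. So was naming other acute phase and NF-kB genes.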

Additional observations from a re-analysis of the deposited data

How the results depend on the processing

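No paired analysis was possible because the untreated columns carry 1 shared name and no replicate number. Over all genes, 12 passed with no filter on low values (0 of them members), against 0 in the fit as reported. Under the stated 2-fold limit on replicates 15 of 602 passed. That limit was put on reads not scaled for depth, and it keeps genes with little spread within a group. It therefore favours genes passing, and the 15 are no added support. The other settings with all 4 libraries gave 0. Leaving out each library gave 0 to 8540 genes over all, 0 to 3 members (Serping1, C4b and C2, without untreated library B) and 0 to 12 other complement genes, in each case the most by limma voom without untreated library B. The log2 ratio of C3 to Serping1 ran from 0.22 to 1.16. Directions of members not past the test turned as follows. C4b was at 0.0230 after median-of-ratios scaling with or without the filter, 0.30 after quantile normalization, 0.13 by voom and 0.24 with factors over tested genes. Cfp was at 0.18 after quantile normalization, 0.0168 by voom and 0.19 with factors over tested genes. Against voom, C1ra was at -0.14 and C1s1 at -0.0111 on log2 RPKM with no filter. Leaving out each library gave log2 changes of -0.27 to 0.31 for C1ra, 0.03 to 0.51 for C1s1, -0.96 to 0.16 for Serping1, -0.74 to 0.94 for C4b, -0.71 to 0.12 for C2, -0.74 to 0.79 for C3, 0.15 to 1.13 for Cfb and -0.67 to 0.45 for Cfp. The cause was not tested. Factors over tested genes and scaling with no filter were added after seeing the data.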
